A study of Mus musculus with 12 samples.

Results

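The SLC25 family holds the carrier proteins that move metabolites, nucleotides, phosphate and cofactors across the inner mitochondrial membrane. Its members in whole mouse heart were taken as the genes of the count table whose symbol starts with Slc25a and a digit and whose mean over all libraries was 1 CPM (counts scaled to a common library size) or more. Of 48 rows with such a symbol, 39 met this rule, out of 54178 genes in the table, and all 39 passed the filter on low counts and were tested among 15226 genes. The rule used the mean over all libraries and not any comparison.

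The data came from 12 libraries of total RNA from whole hearts, in 4 groups of 3. Flox mice carried Cited4 flox/flox alleles. KO mice were bred from them and from aMHC-cre mice, whose cre is driven by a cardiomyocyte promoter. Each genotype was labelled sedentary or exercise, the latter meaning voluntary wheel running, over 8 weeks. The groups are called Flox-sedentary, Flox-exercise, KO-sedentary and KO-exercise, names that repeat the words of the labels. All 4 groups derive from the floxed line. No group carried the cre transgene with intact Cited4, so loss of Cited4 and the transgene cannot be told apart. The treatment was taken from the words of the labels, while a letter in each bracketed title code reads the other way (E beside sedentary, S beside exercise). If the codes were right, every exercise direction and the interaction below would turn sign, the genotype comparisons within a label would exchange names, and the genotype average would stay. The animals' age and sex, and which animal gave which library, were not stated, so p-values reflect only the spread of the libraries, which may be technical.

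Most SLC25 proteins share a fold of tandem repeats around a central cavity and work by alternating access, usually exchanging a solute of the matrix for a solute of the intermembrane space. In heart muscle the most heavily used members export ATP made by the respiratory chain, return ADP and phosphate to it, bring in acylcarnitines for fatty acid oxidation, and run the malate-aspartate shuttle, which carries reducing equivalents of cytosolic NADH into the matrix. Others supply coenzyme A, NAD+, folate, amino acids, glutathione and iron.

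The libraries held 17465432 to 20467300 counts each, of which the 13 protein genes of the mitochondrial genome took 21% to 27.2%. Cited4 stood between 10.1 and 23.9 CPM in the Flox libraries and between 0 and 0.241 CPM in the KO libraries. Some libraries stood apart in cell type markers. The 15 atrial cardiomyocyte markers summed to 744.5 to 5688 CPM in Flox-sedentary, 689.4 to 6031 in Flox-exercise, 2512 to 25200 in KO-sedentary and 897.4 to 4676 in KO-exercise. The 3 KO libraries labelled sedentary held 2512, 13760 and 25200 CPM in that order of replicate number, so the first differed from the other two. None of the atrial markers was at 0 in every library, and 5 had a 0 in some library. The 14 ventricular markers, each at 1 CPM or more in at least 1 library, summed to 82850 to 87120 CPM in Flox-sedentary and 59550 to 75450 CPM in KO-sedentary. In that genotype comparison 6 of 10 white adipocyte markers were higher in every KO library than in every Flox library. So were 3 of 8 brown adipocyte and 7 of 8 fibroblast markers, against 10.4% of all genes tested. The mean log2 CPM of the white adipocyte markers was 3.53 to 4.03 in KO-sedentary and 0.29 to 1.55 in Flox-sedentary, while their summed level overlapped (658.4 to 833.2 against 708.2 to 920.4 CPM). For the brown adipocyte markers the mean was 5.16 to 5.99 against 3.98 to 4.92, and the sum overlapped (1060 to 1313 against 1305 to 1611 CPM). The part of these differences in the results below was not tested beyond a fit with the atrial markers as a covariate. In bulk RNA, fewer cells of a type and less RNA per cell cannot be told apart.

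Levels of different carriers were compared as CPM per kilobase of exon. The family was dominated by the exchange of adenine nucleotides and phosphate. Slc25a4, the ADP/ATP exchanger ANT1 of heart and skeletal muscle, had a median of 2230 CPM per kilobase over the 12 libraries, with a range of 1739 to 2843. Slc25a3, the phosphate carrier, which also brings copper into the matrix, followed at 697.4 (508.9 to 772.5). These ranges did not overlap each other or that of the carrier below them. Slc25a11, the 2-oxoglutarate/malate carrier of the malate-aspartate shuttle, had a median of 231.7 CPM per kilobase (184.6 to 293), and Slc25a5, the ADP/ATP exchanger ANT2, 191.6 (173.2 to 232.8). The ranges of these last carriers overlapped, so their order is not beyond the spread. Slc25a20, which brings acylcarnitine in for fatty acid oxidation, came next at 74.75 CPM per kilobase (53.65 to 86.87). The lowest member was Slc25a53, with a median of 0.538 CPM per kilobase.

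Together the 39 carriers summed to 5991.5 to 8970.7 CPM in a library, and Slc25a4 and Slc25a3 accounted for 70.5% to 77.8% of that. The summed level was 8241, 8061 and 7624 CPM in Flox-sedentary, 8355, 7134 and 8971 in Flox-exercise, 6965, 5992 and 6168 in KO-sedentary, and 7817, 7898 and 7059 in KO-exercise. In these CPM, which use totals scaled by TMM factors, every KO library labelled sedentary lay below every library of the other groups. The factors were 1.046 to 1.124 in KO-sedentary, 0.954 to 0.971 in Flox-sedentary, 0.903 to 1.052 in Flox-exercise and 0.966 to 1.025 in KO-exercise. KO-sedentary library 1 (6965 CPM, factor 1.046) lay below KO-exercise library 3 (7059 CPM, factor 1.025) only with this scaling. Since most of the sum is Slc25a4 and Slc25a3, it describes chiefly these carriers.

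**Figure D1:**
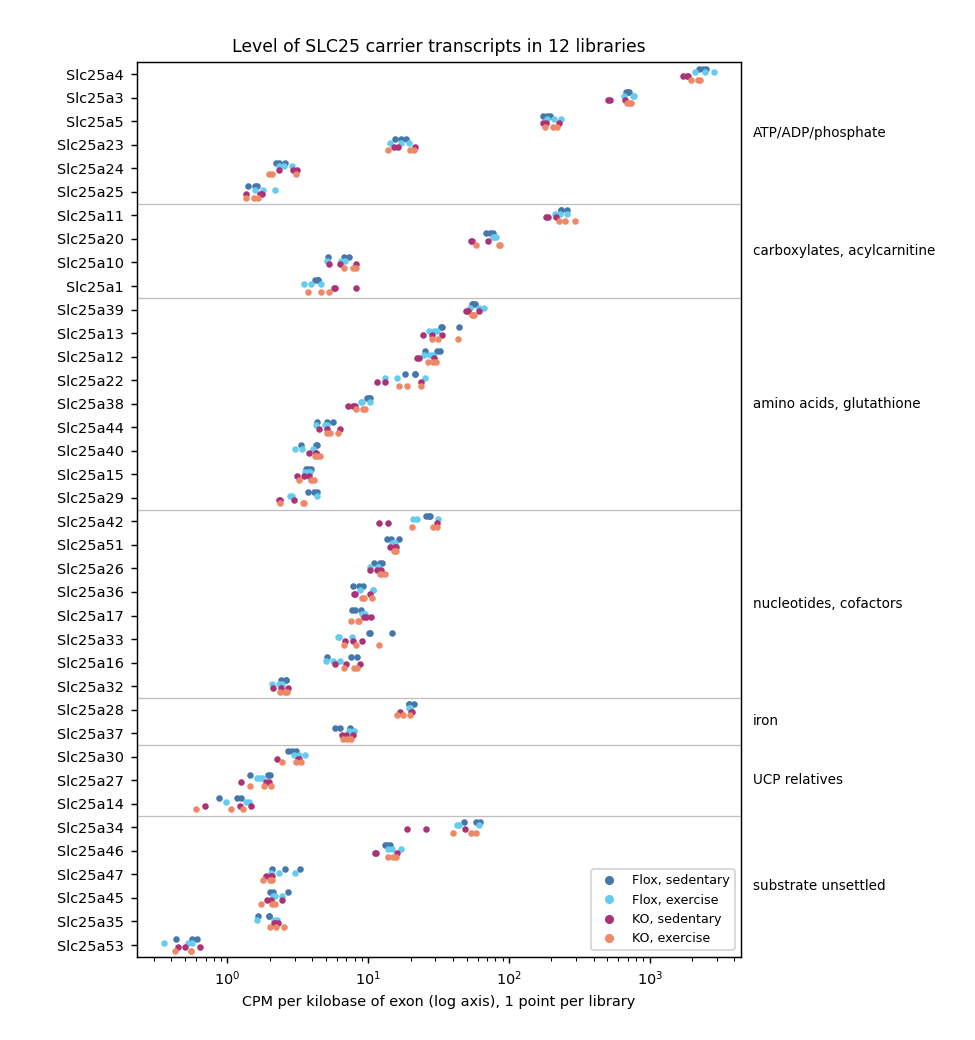
Level of 38 SLC25 carriers in CPM per kilobase of exon on a log axis, 1 point per library, coloured by group and sorted within classes of substrate. Slc25a4 and Slc25a3 stood highest, and Slc25a53 lowest with a median of 0.538.

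At the edge of the rule, Slc25a53, whose substrate is unsettled, had a mean of 1.74 CPM. It stood at 2.07, 1.89 and 1.46 CPM in Flox-sedentary, 1.20, 1.79 and 1.88 in Flox-exercise, 1.5, 2.15 and 1.69 in KO-sedentary, and 1.85, 1.86 and 1.44 in KO-exercise. Slc25a14, an uncoupling protein relative also called UCP5, had a mean of 2.04 CPM, with 2.13, 1.58 and 2.27 in Flox-sedentary, 2.57, 2.47 and 1.77 in Flox-exercise, 1.25, 2.69 and 2.24 in KO-sedentary, and 1.08, 1.91 and 2.35 in KO-exercise. The groups overlapped for both. Just below 1 CPM were Slc25a31, the ADP/ATP exchanger ANT4 of the testis (mean 0.387, from 0.207 to 0.850 CPM over the libraries), and Slc25a18, a glutamate carrier (mean 0.241, from 0.0505 to 0.649 CPM). The other rows left out were Slc25a2, Slc25a5-ps, Slc25a21, Slc25a41, Slc25a43, Slc25a48 and Slc25a54, and none of the 9 passed the filter. The lowest estimated count of any member in any library was 21. By mean level, 14 members were at 50 CPM or more, 15 between 10 and 50, and 10 between 1 and 10.

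No carrier passed an adjusted p of 0.05 in any of the 7 comparisons with edgeR's quasi-likelihood test. The smallest adjusted p was 0.145 for KO over Flox with the sedentary label, where that test called 0.125% of all genes, and between 0.274 and 0.619 in the other comparisons. The share of all genes called was 0% for exercise labels in Flox, 0.0197% in KO, 0.00657% for KO over Flox with the exercise label, 0% for the interaction, 0.0525% for the genotype average and 0.0263% for the exercise average. DESeq2 on the same genes called 2 carriers for KO over Flox with the sedentary label (Slc25a4 and Slc25a38), where it called 2.59% of all genes, 1 for the genotype average (Slc25a4), where it called 1.13%, and none elsewhere.

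Under the sedentary label, the abundant carriers of KO hearts tended to lie below those of Flox hearts. Of 39 carriers, 23 had a negative log2 difference and 16 a positive one, with a median of -0.06 against 0.00 over all genes (-0.02 with the atrial covariate). At an unadjusted p under 0.05 there were 9 carriers (23.1%, against 13.5% of all genes), 7 lower (17.9%, against 5.41%) and 2 higher (5.13%, against 8.1%). Every KO value was below every Flox value for 6 carriers (15.4%, against 7.93% of all genes): Slc25a3, Slc25a4, Slc25a11, Slc25a29, Slc25a33 and Slc25a38. Slc25a1, Slc25a17 and Slc25a35 were higher without overlap (7.69%, against 10.4%). Among the 14 carriers at 50 CPM or more, 11 were lower, with a median of -0.30. All 2687 genes at that level had a median of -0.10 and 70% of them were lower, so abundant genes in general leaned the same way.

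The ADP/ATP exchanger Slc25a4 (ENSMUSG00000031633, GRCm38 chr8:46206797-46211284, minus strand, 4 exon blocks) stood at 4866, 4574 and 4328 CPM in Flox-sedentary and at 3621, 3347 and 3566 CPM in KO-sedentary. The groups did not overlap. The labelled exercise libraries held 4759, 4011 and 5472 CPM in Flox and 4258, 4353 and 3782 CPM in KO, which overlap. KO over Flox with the sedentary label was a log2 difference of -0.39 ± 0.13 (SE; unadjusted p = 0.0131, edgeR adjusted p = 0.242), and -0.20 with the exercise label. Averaged over both labels the difference was -0.29 ± 0.10 (edgeR adjusted p = 0.286), and DESeq2 gave an adjusted p of 0.0288 for it. With the atrial covariate the average was -0.18 ± 0.11. With the atrial markers as a covariate the sedentary-label difference was -0.21 ± 0.16.

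The phosphate carrier Slc25a3 (ENSMUSG00000061904, chr10:91116574-91124059, minus strand) stood at 1372, 1398 and 1320 CPM in Flox-sedentary, at 1471, 1278 and 1503 in Flox-exercise, at 1291, 1017 and 990.4 in KO-sedentary, and at 1443, 1413 and 1342 in KO-exercise. The 3 KO libraries labelled sedentary were below all others but one, since KO-sedentary library 1 exceeded the lowest Flox library labelled exercise. The log2 difference of KO over Flox with the sedentary label was -0.31 ± 0.13 (unadjusted p = 0.0332, edgeR adjusted p = 0.323). Leaving out KO-sedentary library 1 moved it to -0.46, and the atrial covariate to -0.15 ± 0.15.

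Slc25a5, the ANT2 paralog of Slc25a4, held another pattern. It stood at 243, 215 and 232 CPM in Flox-sedentary, at 289, 230 and 261 in Flox-exercise, at 281, 216 and 227 in KO-sedentary and at 255, 223 and 273 in KO-exercise. The 4 groups overlapped. On a per-kilobase scale Slc25a4 was 12.9, 13.7 and 12 times Slc25a5 in Flox-sedentary and 8.30, 9.98 and 10.1 times in KO-sedentary. In the labelled exercise groups the ratio was 10.6, 11.2 and 13.5 in Flox and 10.8, 12.6 and 8.93 in KO. This ratio was chosen after its values were seen and has no test. Reads of these paralogs can be split between them by the estimation of counts. The calcium-regulated ATP-Mg/phosphate carriers Slc25a23, Slc25a24 and Slc25a25 had sedentary-label genotype differences of 0.06, 0.24 and 0.07, none at an unadjusted p under 0.05.

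**Figure D2:**
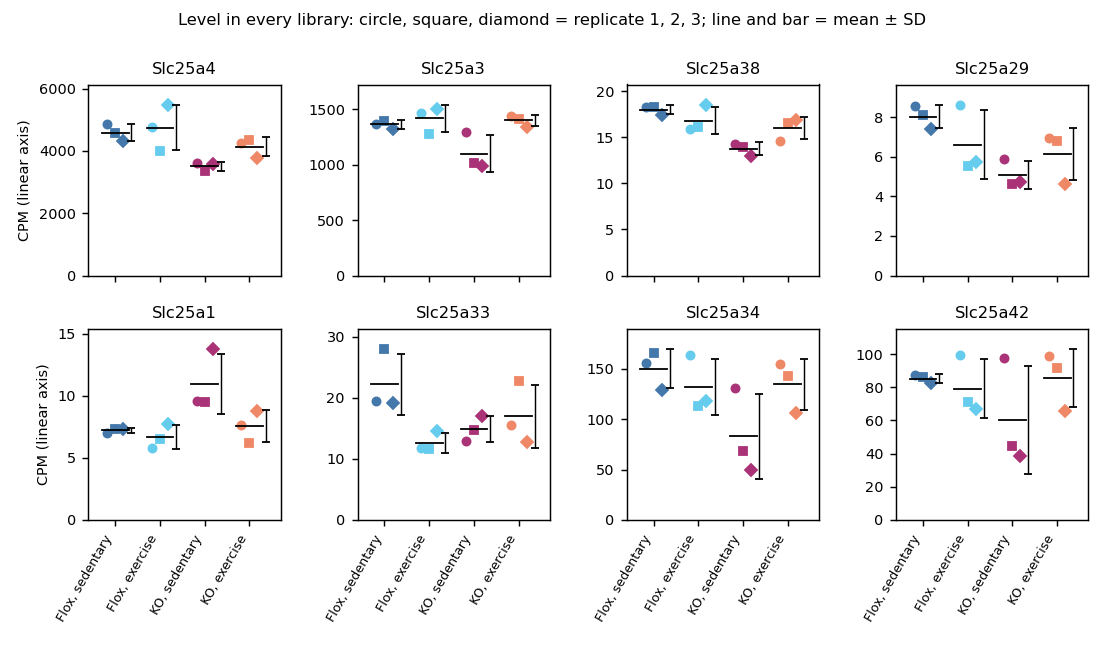
CPM on a linear axis for 8 carriers in each library, by group, with the mean and SD as a line and bar and the marker shape giving the replicate number. KO-sedentary lies below Flox-sedentary without overlap for Slc25a4, Slc25a3, Slc25a38, Slc25a29 and Slc25a33 and above it for Slc25a1, while KO-sedentary library 1 stands apart from libraries 2 and 3 for Slc25a34 and Slc25a42.

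Of the 4 carriers of carboxylates and acylcarnitine, 2 were higher and 2 lower in KO with the sedentary label, with a median of -0.13. Slc25a1, which exports citrate used in the cytosol for lipid synthesis (ENSMUSG00000003528, chr16:17925223-17928219, minus strand), stood at 7.03, 7.30 and 7.37 CPM in Flox-sedentary and at 9.60, 9.49 and 13.7 CPM in KO-sedentary. In the labelled exercise groups it stood at 5.82, 6.52 and 7.70 CPM in Flox and at 7.68, 6.20 and 8.80 CPM in KO. KO-sedentary was above every other library. The genotype difference was 0.60 ± 0.18 (unadjusted p = 0.00521, edgeR adjusted p = 0.180), or 1.51-fold, and without KO-sedentary library 3 it was 0.39. The exercise-label difference in KO was -0.53 ± 0.18 (unadjusted p = 0.0101, edgeR adjusted p = 0.359), and -0.33 without KO-sedentary library 3. With the atrial covariate the genotype difference was 0.40 ± 0.23 and the exercise-label difference in KO -0.41 ± 0.20. These comparisons share the 3 KO libraries labelled sedentary.

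Slc25a11 (chr11:70644196-70647479, minus strand) stood at 398, 441 and 402 CPM in Flox-sedentary, 395, 364 and 440 in Flox-exercise, 370, 316 and 322 in KO-sedentary, and 428, 501 and 389 in KO-exercise. KO-sedentary did not overlap with Flox-sedentary or with KO-exercise. The genotype difference with the sedentary label was -0.30 ± 0.13 (unadjusted p = 0.0369) and -0.11 ± 0.14 with the atrial covariate. Exercise over sedentary label in KO was 0.39 ± 0.13 (unadjusted p = 0.0103, edgeR adjusted p = 0.359), and 0.25 ± 0.13 with the atrial covariate. Slc25a20, the acylcarnitine carrier, stood at 138, 130 and 122 CPM in Flox-sedentary and at 126, 95.7 and 97 in KO-sedentary, which overlap (-0.29 ± 0.15, and -0.16 ± 0.19 with the atrial covariate). In the exercise-label groups it stood at 137, 144 and 140 CPM in Flox and at 155, 152 and 103 CPM in KO. Without KO-sedentary library 1 the sedentary-label difference was -0.45. The dicarboxylate carrier Slc25a10 had a difference of 0.03.

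The 9 carriers of amino acids and glutathione included 7 with a negative and 2 with a positive genotype difference with the sedentary label, with a median of -0.24. Slc25a38, the glycine carrier needed for heme synthesis (ENSMUSG00000032519, chr9:120110374-120124504, plus strand), stood at 18.4, 18.3 and 17.5 CPM in Flox-sedentary and at 14.3, 14 and 13 CPM in KO-sedentary. In the labelled exercise groups it stood at 15.9, 16.1 and 18.5 in Flox and at 14.6, 16.5 and 16.9 in KO. The sedentary-label groups did not overlap and the exercise-label groups overlapped. The difference was -0.39 ± 0.10 (unadjusted p = 0.0021, edgeR adjusted p = 0.145), and it ranged from -0.44 to -0.36 when each library was left out in turn. DESeq2 gave -0.40 ± 0.12 with an adjusted p of 0.0409, and the atrial covariate -0.30 ± 0.13.

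Slc25a29, which carries basic amino acids (chr12:108825873-108835883, minus strand), stood at 8.56, 8.09 and 7.42 CPM in Flox-sedentary, 8.61, 5.52 and 5.71 in Flox-exercise, 5.89, 4.61 and 4.70 in KO-sedentary, and 6.96, 6.82 and 4.64 in KO-exercise. The sedentary-label groups did not overlap, with a difference of -0.66 ± 0.21 (unadjusted p = 0.00671, edgeR adjusted p = 0.194). With the atrial covariate it was -0.38 ± 0.24. The aspartate/glutamate carriers of the malate-aspartate shuttle, Slc25a12 (aralar) and Slc25a13 (citrin), had differences of -0.24 and -0.35. The glutathione carriers Slc25a39 and Slc25a40 had -0.05 and 0.06, the ornithine carrier Slc25a15 -0.12, and the branched-chain amino acid carrier Slc25a44 0.08. None of these last 6 was at an unadjusted p under 0.05.

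Of the 9 carriers of nucleotides and cofactors, 4 lay higher in KO and 5 lower with the sedentary label, with a median of -0.03. Slc25a33, which carries pyrimidine nucleotides used for mitochondrial DNA and RNA (ENSMUSG00000028982, chr4:149744036-149774277, minus strand, with Gm13068 overlapping its exons on the opposite strand), gave the smallest p of the family for exercise labels in Flox and for the interaction. It stood at 19.5, 27.9 and 19.1 CPM in Flox-sedentary, at 11.7, 11.6 and 14.5 in Flox-exercise, at 12.9, 14.8 and 17 in KO-sedentary and at 15.6, 22.7 and 12.7 in KO-exercise. Flox-sedentary was above both Flox-exercise and KO-sedentary without overlap, and Flox-sedentary library 2 was the highest of all. Exercise over sedentary label was -0.81 ± 0.21 in Flox (unadjusted p = 0.00215, edgeR adjusted p = 0.473) and 0.19 in KO. The interaction, which is the difference of these, was 1.00 ± 0.30 (unadjusted p = 0.00529, edgeR adjusted p = 0.406). KO over Flox was -0.57 ± 0.21 with the sedentary label, and -0.30 ± 0.26 with the atrial covariate. Leaving out Flox-sedentary library 2 moved the exercise-label difference in Flox to -0.61 and the sedentary-label genotype difference to -0.37.

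Other cofactor carriers had small genotype differences with the sedentary label: 0.02 for the NAD+ carrier Slc25a51, -0.07 for the S-adenosylmethionine carrier Slc25a26, -0.08 for the folate and FAD carrier Slc25a32, 0.03 for the pyrimidine nucleotide carrier Slc25a36 and 0.03 for Slc25a16, which is linked to coenzyme A import. None of these 5 was at an unadjusted p under 0.05. Slc25a17, which carries coenzyme A, FAD and NAD+ in the peroxisome and not the mitochondrion, was 0.25 ± 0.10 (unadjusted p = 0.0278). The iron carriers mitoferrin 1 (Slc25a37) and mitoferrin 2 (Slc25a28) had differences of 0.13 and -0.06. The uncoupling protein relatives Slc25a14, Slc25a27 and Slc25a30 had differences of 0.05, -0.08 and 0.01. Among members with an unsettled or unstated substrate other than Slc25a34, described below, Slc25a46, an outer membrane protein tied to mitochondrial shape, had -0.08, Slc25a45 -0.08, Slc25a47 -0.40, Slc25a35 0.24 and Slc25a53 -0.02. Of these iron carriers, uncoupling relatives and members of unsettled substrate, none was at an unadjusted p under 0.05, and Slc25a35 alone had groups without overlap.

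Slc25a42, the mitochondrial coenzyme A carrier, Slc25a34, whose substrate is unsettled, and the glutamate carrier Slc25a22 were named after their values were seen, because KO-sedentary library 1 stood apart from the other KO-sedentary libraries. Slc25a34 stood at 156, 166 and 129 CPM in Flox-sedentary, at 164, 113 and 119 in Flox-exercise, at 131, 68.3 and 49.99 in KO-sedentary, and at 155, 143 and 106 in KO-exercise. KO-sedentary libraries 2 and 3 held the lowest values of all 12, and KO-sedentary library 1 lay within the range of the other groups. Slc25a42 stood at 87.3, 86.0 and 82.4 CPM in Flox-sedentary and at 97.7, 44.4 and 38.3 CPM in KO-sedentary, with 99.3, 71.0 and 66.9 in Flox-exercise and 98.8, 91.5 and 65.7 in KO-exercise. Slc25a22 stood at 62.4, 52.4 and 61.8 CPM in Flox-sedentary, 72.6, 46.2 and 37.8 in Flox-exercise, 68.0, 38.0 and 33.2 in KO-sedentary and 68.2, 54.8 and 47.8 in KO-exercise. Library 1 was thus the highest of its group in every group for Slc25a42 and Slc25a22. For Slc25a34 it was the highest in every group but Flox-sedentary. KO-sedentary library 1 exceeded the mean of libraries 2 and 3 by 1.24 on the log2 scale for Slc25a42, 1.14 for Slc25a34 and 0.93 for Slc25a22. Over the other carriers this value ran from -0.97 for Slc25a14 and -0.62 for Slc25a27 to 0.49 for Slc25a10 and 0.52 for Slc25a46, with 0.07 for Slc25a4.

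With all libraries, KO over Flox with the sedentary label was -0.86 ± 0.30 for Slc25a34 (unadjusted p = 0.0164, edgeR adjusted p = 0.259) and -0.50 ± 0.31 for Slc25a42 (edgeR adjusted p = 0.516). Without KO-sedentary library 1, these were -1.36 ± 0.22 (edgeR adjusted p = 0.0144) and -1.06 ± 0.19 (edgeR adjusted p = 0.0208), and 3.07% of all genes were called in that fit. Both carriers were named because that library stood apart, so leaving it out was bound to enlarge their differences. These adjusted p are therefore no separate support. Without KO-sedentary library 3 the differences moved the other way, to -0.60 for Slc25a34 and -0.27 for Slc25a42. For Slc25a22 the values were -0.34 ± 0.29 with all libraries, -0.74 without library 1 and -0.16 without library 3. Libraries 2 and 3 are those with 13760 and 25200 CPM of atrial markers. With the atrial markers as a covariate the differences were -0.43 ± 0.30 for Slc25a34, -0.16 ± 0.34 for Slc25a42 and -0.14 ± 0.35 for Slc25a22. The mean level of the 84 respiratory chain genes of the nucleus ran the other way across these libraries, at 7.93, 8.04 and 8.21 log2 CPM in KO-sedentary libraries 1, 2 and 3, against 8.5, 8.4 and 8.22 in Flox-sedentary. The ventricular markers were highest in library 1, as these carriers were, with sums of 75450, 59550 and 60620 CPM in the same KO-sedentary libraries. So were the mitochondrially encoded protein genes, with sums of 217500, 193400 and 191000 CPM.

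**Figure D3:**
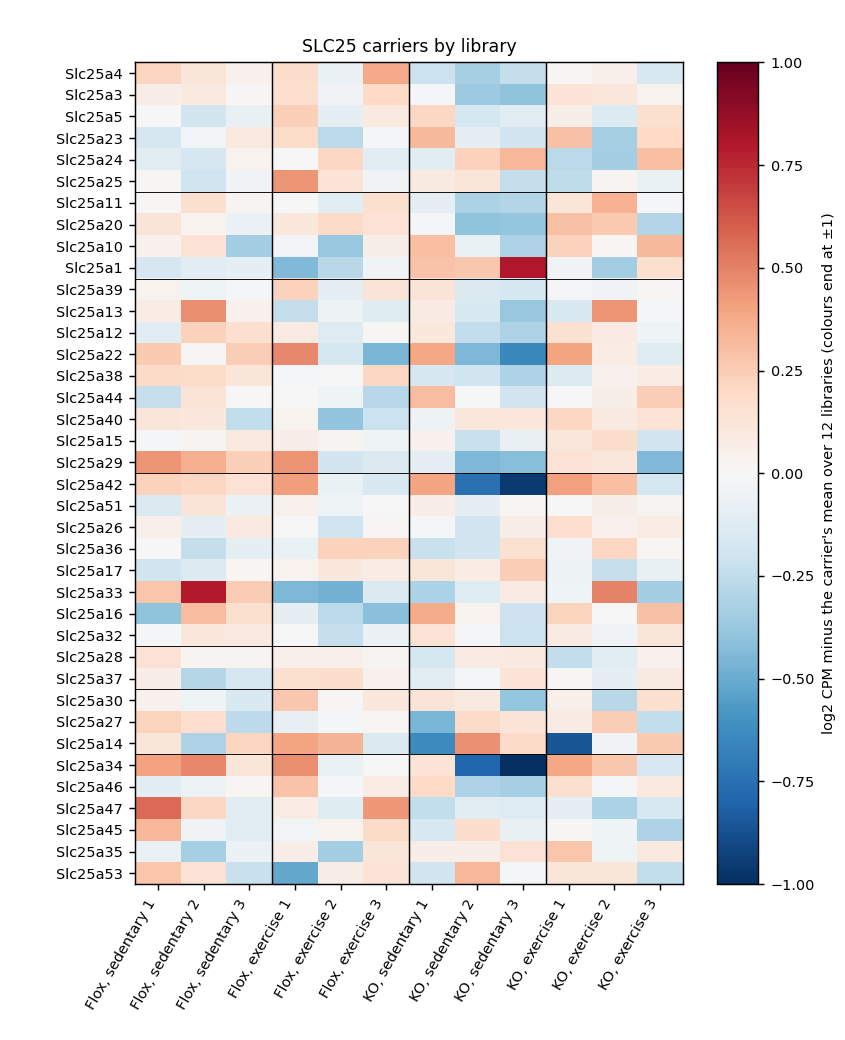
Each cell gives the log2 CPM of 1 of 38 carriers in a library minus the mean of that carrier over 12 libraries, in red above and blue below, with colours ending at 1 in either direction; rows follow the substrate classes and columns the 4 groups. Slc25a34 and Slc25a42 are dark blue in KO-sedentary libraries 2 and 3, while KO-sedentary library 1 is above the mean for both.

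Upstream sequence is shown for Slc25a34 and Slc25a42, whose levels split the KO-sedentary libraries. It was taken from the 250 bases before the gene's start in RefSeq (GRCm38.p6) and is written 5′ to 3′ on the gene's strand, which is minus for both. Annotated starts differ between GENCODE and RefSeq and between transcripts, so only bases outside the gene span of both are shown: 193 bases for Slc25a34 (chr4:141623892-141624084) and 226 bases for Slc25a42 (chr8:70212306-70212531). For Slc25a4, 222 of the 250 bases lay inside the GENCODE gene, and its window is not shown. Capitals mark CCAAT, the NF-Y box (ATTGG on the other strand), and AAGGTCA, the core of the estrogen-related receptor element (TGACCTT on the other strand).
Slc25a34: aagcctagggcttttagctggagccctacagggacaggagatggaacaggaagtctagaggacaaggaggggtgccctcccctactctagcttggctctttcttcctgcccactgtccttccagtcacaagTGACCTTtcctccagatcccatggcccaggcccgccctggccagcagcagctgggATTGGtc
Slc25a42: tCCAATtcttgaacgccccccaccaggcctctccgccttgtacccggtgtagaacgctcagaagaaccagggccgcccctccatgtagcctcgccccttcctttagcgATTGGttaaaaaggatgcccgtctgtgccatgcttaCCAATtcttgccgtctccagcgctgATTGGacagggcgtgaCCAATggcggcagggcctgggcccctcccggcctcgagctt

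The Slc25a42 sequence held 5 CCAAT matches in either orientation and that of Slc25a34 held 1. Over the 30 carriers with an entry in the table, CCAAT on either strand occurred in 17 (56.7%), against 37.5% of all 27025 genes with windows of the same length. Those 27025 genes were not filtered by level in heart, while the carriers were at 1 CPM or more, so the sets are unlike for every motif here. A gene can have several starts and so several windows, and for 19 of the 30 carriers a window entered the GENCODE gene. AAGGTCA occurred in 1 carrier (3.33%), Slc25a34, against 4.7% of genes. TCAAGGTCA, which contains AAGGTCA, and the nuclear respiratory factor 1 palindrome occurred in no carrier window, against 0.422% and 0.877% of genes, and TATAAA, the TATA box, in none against 14.3%. Both strands were searched in each case. These are matches of letters in a fixed window and are given as a description.

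Exercise over sedentary label in Flox hearts gave 17 positive and 22 negative differences, with a median of -0.03 against 0.01 over all genes. At an unadjusted p under 0.05 were 2 carriers (5.13%, against 7.41% of all genes): Slc25a33, above, and mitoferrin 1, Slc25a37. Slc25a37 stood at 30.9, 24.2 and 26.2 CPM with the sedentary label and at 32.8, 33.3 and 30.3 with the exercise label, which overlap (0.25 ± 0.11, edgeR adjusted p = 0.652). Slc25a13 came next by p, at 105, 137 and 102 CPM with the sedentary label and 84.2, 96.0 and 91.5 with the exercise label, without overlap (-0.34 ± 0.17, unadjusted p = 0.064). Without Flox-sedentary library 2 it was -0.19. Values without overlap were lower for 2 carriers, Slc25a13 and Slc25a33 (5.13%, against 6.57% of all genes), and higher for 1, Slc25a17 (2.56%, against 7.5%). In the classes, all 6 carriers of ATP, ADP and phosphate had positive differences (median 0.09) and 8 of 9 amino acid and glutathione carriers had negative ones (median -0.12), none of them at an unadjusted p under 0.05.

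In KO hearts, exercise over sedentary label gave 29 positive and 10 negative differences, with a median of 0.08 against 0.00 over all genes, of which 50.7% were lower. With the atrial markers as a covariate, 16 carriers were lower and the median was 0.03. All 9 carriers of amino acids and glutathione (median 0.20) and 8 of 9 carriers of nucleotides and cofactors (median 0.09) had positive differences. At an unadjusted p under 0.05 were 6 carriers (15.4%, against 10.6% of all genes): 4 higher (10.3%, against 4.35%), namely Slc25a3, Slc25a11, Slc25a20 and Slc25a34, and 2 lower (5.13%, against 6.27%), namely Slc25a1 and Slc25a17. Values without overlap were higher for 4 (10.3%, against 5.82%), namely Slc25a3, Slc25a4, Slc25a11 and Slc25a38, and lower for 2 (5.13%, against 7.31%), namely Slc25a1 and Slc25a17. For Slc25a3 the difference was 0.35 ± 0.13 (unadjusted p = 0.0193, edgeR adjusted p = 0.406). Among the 14 carriers at 50 CPM or more none was lower (median 0.24), where 29.7% of genes at that level were (median 0.10). Without KO-sedentary library 1, 3 carriers passed edgeR's test: Slc25a3 (0.50 ± 0.12, adjusted p = 0.038), Slc25a34 (1.21 ± 0.21, adjusted p = 0.0209) and Slc25a42 (1.06 ± 0.19, adjusted p = 0.0209), with 3.63% of all genes called. Slc25a34 and Slc25a42 were named because that library stood apart, so leaving it out was bound to enlarge their differences. Without KO-sedentary library 3 instead, the difference of Slc25a34 was 0.45 and that of Slc25a42 0.27, against 0.70 and 0.51 with all libraries. This comparison and the sedentary-label genotype comparison share the 3 KO libraries labelled sedentary.

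Under the exercise label, KO over Flox gave 21 positive and 18 negative differences, with a median of 0.03 against -0.01 over all genes. At an unadjusted p under 0.05 were 2 carriers (5.13%, against 7.94%). The glutathione carrier Slc25a40 stood at 11.3, 8.36 and 9.48 CPM in Flox and at 12.7, 11.7 and 12.1 CPM in KO (0.33 ± 0.14, unadjusted p = 0.0351, edgeR adjusted p = 0.619). Slc25a16 stood at 19.9, 17.6 and 15.8 CPM in Flox and at 24.7, 21.1 and 26.0 CPM in KO (0.43 ± 0.18, unadjusted p = 0.0374, edgeR adjusted p = 0.619). Neither gene's groups overlapped. Values without overlap were higher for 3 carriers (7.69%, against 7.61% of all genes), Slc25a26 among them, and lower for 1, Slc25a17 (2.56%, against 7.23%). Next by p was Slc25a33, with overlapping groups (0.43 ± 0.21), and without KO-exercise library 2 its difference was 0.16.

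**Figure D4:**
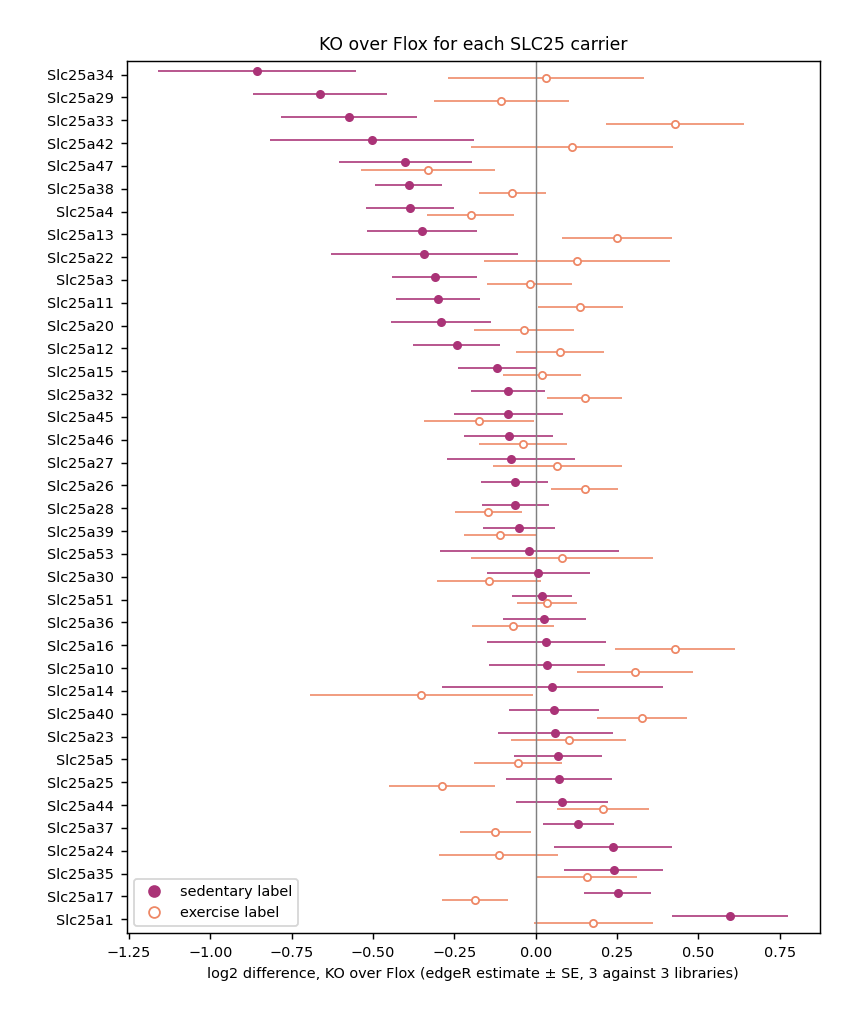
Log2 difference of KO over Flox for 38 carriers, with its SE as a bar, with the sedentary label (filled points) and the exercise label (open points), sorted by the former and from 3 against 3 libraries each. The filled points run from -0.86 for Slc25a34 to 0.60 for Slc25a1 and the open points from -0.35 for Slc25a14 to 0.43 for Slc25a33.

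The interaction, which is the exercise-label difference in KO minus that in Flox, gave 26 positive and 13 negative values, with a median of 0.13 against -0.02 over all genes (0.07 with the atrial covariate), and 5 carriers at an unadjusted p under 0.05 (12.8%, against 9.88%). After Slc25a33 the smallest p belonged to Slc25a17 and Slc25a13. Slc25a13 gave 0.60 ± 0.24 (unadjusted p = 0.0265, edgeR adjusted p = 0.477), with 105, 89.2 and 76.3 CPM in KO-sedentary and 89.3, 135 and 98.4 in KO-exercise, 0.40 without KO-exercise library 2, and 0.38 ± 0.23 with the atrial covariate. Averaged over treatment labels, KO over Flox gave 24 negative and 15 positive differences (median -0.05) and 5 carriers at an unadjusted p under 0.05 (12.8%, against 11.6%). By p these were led by Slc25a38 (-0.23 ± 0.07, edgeR adjusted p = 0.274), Slc25a4 and Slc25a1 (0.39 ± 0.13, edgeR adjusted p = 0.290), and the others were Slc25a29 (-0.38) and Slc25a47 (-0.37). Averaged over genotypes, exercise over sedentary label gave 23 positive and 16 negative differences (median 0.04) and 4 carriers at an unadjusted p under 0.05 (10.3%, against 8.45%), led by Slc25a1 (-0.32 ± 0.13), Slc25a3 (0.20 ± 0.09) and Slc25a20 (0.24 ± 0.11).

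The carriers work with enzymes and channels that were listed beside them. Of 45 tested partner genes none passed the threshold in any comparison, and with the sedentary label 11 were higher and 34 lower in KO (median -0.13). At an unadjusted p under 0.05 were 10 of the 45, against 2057 of all 15226 genes (13.5%). Of all genes 49.96% were lower, and 70% of those at 50 CPM or more. The 4 carnitine shuttle enzymes, which make and use the acylcarnitine that Slc25a20 carries, were all lower (median -0.34), Crat (carnitine acetyltransferase) having the smallest p at -0.37 ± 0.15. Both subunits of the pyruvate carrier were lower (median -0.29), led by Mpc2 (-0.41 ± 0.14). Of 6 shuttle enzymes of malate-aspartate and glycerophosphate, 4 were lower and 2 higher, among them Gpd2, the mitochondrial glycerol-3-phosphate dehydrogenase, at 12.7, 13.9 and 14.4 CPM in Flox and 19.9, 14.9 and 20.04 CPM in KO (0.42 ± 0.12, edgeR adjusted p = 0.174).

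Of 9 genes of the machinery that imports carriers into the inner membrane, 8 were lower (median -0.06; Tomm40, the outer membrane import pore, -0.14 ± 0.14). Of 9 genes of the calcium uniporter and calcium release, 6 were lower (median -0.14; Micu2, a gatekeeper of the uniporter, -0.19 ± 0.10), and 2 of 3 outer membrane channels were lower (Vdac1 -0.25 ± 0.12). Ckmt2, the mitochondrial creatine kinase of muscle, which uses ATP exported by the ADP/ATP exchanger, gave -0.29 ± 0.18. Of 5 sideroflexins, a family of mitochondrial amino acid carriers of another fold, 2 were higher and 3 lower (median -0.17), and Sfxn3 gave 0.42 ± 0.12 (edgeR adjusted p = 0.174). Of 5 SLC25 relatives with other symbols, 2 were higher and 3 lower (median -0.003). Ucp2, an uncoupling protein among these relatives, was outside the rule by its symbol and not by its level. Ucp2 had the smallest p of the named partners, below the smallest of the 39 carriers in this comparison (edgeR unadjusted p = 0.0021). It stood at 53.3, 84.0 and 75.7 CPM in Flox-sedentary, at 75.6, 82.6 and 65.1 in Flox-exercise, at 137, 138 and 146 in KO-sedentary, and at 152, 78.9 and 138 in KO-exercise, a sedentary-label difference of 0.98 ± 0.22 (unadjusted p = 0.000705, edgeR adjusted p = 0.0994). Of 84 nuclear respiratory chain genes 82 were lower (median -0.31) and of 13 mitochondrially encoded protein genes 12 (median -0.28), none of them past the threshold. The 2687 genes at 50 CPM or more, 70% of which were lower, had a median of -0.10.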

How the data were processed

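Whole-heart RNA from 12 libraries in 4 groups of 3 was depleted of ribosomal RNA (RiboZero) and built into libraries (NEB kit), as the labels' protocols say. The deposited values are estimated counts for each gene symbol. FastQC and Salmon are named, with no version, in the submitters' processing notes, together with mm9 and mm10, with no role. The strand setting is not given in the sources used here. Reads that match near-identical sequences are divided among them by Salmon, so paralogs such as Slc25a4 and Slc25a5 are uncertain to that extent, as are the 10 carriers whose exons another gene overlaps. Since 42.7% of the carriers' values had a fractional part, all were rounded.

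From the 55874 entries, 1696 that name vectors, adaptors and the like (3.87e-05% to 0.186% of a library) were left out. The test was edgeR 4.0.16 (R 4.3.3; filterByExpr, TMM, 1 mean per group over 12 libraries, robust glmQLFit, Benjamini-Hochberg adjustment over 15226 genes), after a check on simulated data. CPM in single libraries uses TMM-scaled totals, log2 CPM a prior count of 2. The mean CPM of a gene and the mitochondrial share of a library use unscaled totals. Positions and exon lengths (union of exons) come from GENCODE M21, GRCm38. The chi-square per degree of freedom between replicates was 17.1 to 84.7, so none looked like 1 library deposited again. Alternatives were DESeq2 1.42.0, RLE factors, no filter, counts not rounded, no mitochondrially encoded genes, only the groups compared, a replicate block, an atrial covariate and each library left out.

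All carriers but 1, which is not reported here, are named, and counts cover all 39. Values per library are given for the 3 smallest p per comparison, the 5 highest per kilobase, the 2 just above 1 CPM, with ranges for the 2 just below, and others said to be chosen after their values were seen, among them Slc25a4, Slc25a3, Slc25a11, Slc25a17, Slc25a20 and Slc25a33 with the sedentary label. Partner genes named are those with the smallest p of their list there. The members, lists and tests were chosen with earlier results of these data known.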

Additional observations from a re-analysis of the deposited data

Results flagged for a closer look

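Slc25a17, the peroxisomal carrier of coenzyme A, FAD and NAD+ (ENSMUSG00000022404, chr15:81318911-81360812, minus strand), differed between treatment labels in opposite directions in the 2 genotypes, with every library of a group on the same side. It stood at 13.3, 13.9 and 15.4 CPM in Flox-sedentary, at 15.6, 16.4 and 16.1 in Flox-exercise, at 16.6, 16.1 and 18.1 in KO-sedentary and at 14.7, 13.0 and 14.5 in KO-exercise. The groups did not overlap in any of the 4 pairwise comparisons. Taken singly, such separation was found in 7.5% of all genes (higher with the exercise label in Flox) and 7.31% (lower with it in KO). For KO over Flox it was 10.4% (higher, sedentary label) and 7.23% (lower, exercise label). The share of genes separated in all 4 together was not computed. Exercise over sedentary label was 0.17 ± 0.10 in Flox and -0.27 ± 0.10 in KO, and KO over Flox was 0.25 ± 0.10 in the sedentary-label pair and -0.19 ± 0.10 in the exercise-label pair. With the atrial covariate the sedentary-label pair gave 0.12 ± 0.12. The difference itself, the interaction, was -0.44 ± 0.14 (unadjusted p = 0.00936, edgeR adjusted p = 0.412) and did not pass the threshold. It ranged from -0.50 to -0.38 when each library was left out in turn.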

How the results depend on the processing

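No carrier past the threshold in a fit had the opposite sign in another, and the number of carriers called was 0 in every comparison and setting except these. For KO over Flox with the sedentary label, DESeq2 called 2 carriers (394 genes, 2.59%, against 19 genes with edgeR), and leaving out each library gave 0 to 2, the 2 being without KO-sedentary library 1 (479 genes). For exercise labels in KO, leaving out each library gave 0 to 3, the 3 again without that library (566 of 15591 genes, against 3). For the genotype average, DESeq2 called 1 carrier (172 genes, against 8). The members' median under library removal ran from -0.14 to -0.02 for KO over Flox with the sedentary label, from 0.07 to 0.18 for exercise labels in KO and from 0.09 to 0.23 for the interaction. It took both signs for exercise labels in Flox (-0.06 to 0.01) and for KO over Flox with the exercise label (-0.02 to 0.06). The median of the genotype average was 0.01 with the atrial covariate, against -0.05. Over all genes tested, the replicate numbers showed no clear pairing of the libraries. The 18 same-numbered pairs correlated at -0.319 to 0.306 (6 over 0.1) and the 36 other pairs at -0.393 to 0.279 (10 over 0.1). Of 12 libraries, 5 correlated best with their own number. This check does not speak for single carriers: Slc25a42, Slc25a22 and Slc25a29 were highest in the library numbered 1 in every group. With the numbers as a replicate block no carrier was called in any comparison, and Slc25a34 with the sedentary label was -0.95 ± 0.20 (edgeR adjusted p = 0.0749). Over all genes DESeq2 called 121 for exercise labels in KO, 49 in Flox (edgeR 0), 10 for KO over Flox with the exercise label (edgeR 1), 50 for the interaction (edgeR 0) and 51 for the exercise average (edgeR 4). Without the low-count filter edgeR called 120 genes for KO over Flox with the sedentary label, 30 for exercise labels in KO and 49 for the genotype average. Fits on only the groups compared do not exist for the interaction and averages. Counting error limits the low carriers most, the lowest count being 21.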
